A study of Mus musculus with 3 samples.

Results

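Irf4 and Batf encode a pair of transcription factors of T cells, and their loci were examined for H3K4me3 and for phospho-STAT3. Both genes were chosen by name, with fixed windows on the mm9 build. The rule states no measured value, but genes and windows were chosen with earlier results of these data known. The Irf4 window spanned 120 kb of chromosome 13 (from 30825000 to 30945000, gene start near 30841000) and the Batf window 60 kb of chromosome 12 (from 87010000 to 87070000, gene start near 87027700). The 2 windows held 6 of the 15684 H3K4me3 regions and 22 of the 26908 phospho-STAT3 sites called over the whole genome. Chromatin immunoprecipitation with sequencing (ChIP-seq) was done on mouse T cells in 3 libraries, 1 per group. The wild-type cells carried the conditional allele Stat3fl/fl with FoxP3-GFP and no Cre, and the STAT3-deficient cells carried both of these together with CD4-Cre, which deletes the allele in cells of the T lineage. Thus all cells shared the floxed allele and the reporter, and the labels name no age, sex or number of mice. Sorted naive CD4 T cells of both genotypes were cultured for 72 h with antibodies to CD3 and CD28, 10 ng/ml of IL-6 and 2.5 ng/ml of TGF-b, while IL-2, IL-4 and IFN-g were blocked. IL-6 was then given again for 1 h. Such cultures turn naive cells into Th17 cells, the helper cells that make IL-17. H3K4me3 was profiled in both genotypes, and STAT3 phosphorylated on serine in wild-type cells alone. Genes other than these 2 were not placed on mm9, so neither the Th17 state nor the deletion of Stat3 was checked here.

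IRF4 belongs to the interferon regulatory factors and is induced by signals from the antigen receptor. BATF is a small basic leucine zipper protein of the AP-1 family that binds DNA together with JUN proteins. Neither IRF4 alone nor BATF alone binds strongly at many of their shared sites: they bind side by side at composite elements that join an AP-1 motif to an IRF motif, and in Th17 cells they open chromatin early, ahead of the lineage factor RORγt. Mice that lack either gene make few Th17 cells. STAT3 carries the IL-6 signal to the nucleus, and H3K4me3 is a histone mark laid down around the starts of active genes.

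The promoters of both genes are shown because both carried H3K4me3 and at least 1 phospho-STAT3 site. The 250 bases before each start were taken from the RefSeq promoter table, whose build, GRCm38.p6, is not that of the reads. On that build and on the plus strand they are chr13:30748983-30749232 for Irf4 and chr12:85686470-85686719 for Batf. Capitals would mark matches to the motifs searched, and there were none.
Irf4: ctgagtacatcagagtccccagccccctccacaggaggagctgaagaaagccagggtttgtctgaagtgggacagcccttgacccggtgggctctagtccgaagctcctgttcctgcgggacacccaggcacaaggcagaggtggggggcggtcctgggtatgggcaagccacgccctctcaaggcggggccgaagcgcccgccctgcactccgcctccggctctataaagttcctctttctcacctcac
Batf: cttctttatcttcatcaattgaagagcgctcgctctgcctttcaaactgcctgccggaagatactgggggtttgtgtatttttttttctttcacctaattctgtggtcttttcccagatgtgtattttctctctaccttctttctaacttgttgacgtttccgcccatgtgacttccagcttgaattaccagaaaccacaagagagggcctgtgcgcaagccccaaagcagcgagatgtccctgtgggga
The Irf4 stretch is rich in G and C, at 63.6% against a median of 52.4% over the same 250 bases of 32851 promoters in the table, and it holds 11 CpG pairs. The Batf stretch is poorer, at 46.4%, with 7 CpG pairs against a median of 6. On both strands, the STAT motif TTCNNNGAA, the AP-1 motif TGANTCA, an IRF motif (GAAA, any 2 bases, GAAA) and a pair of composites were searched. The composites set the AP-1 motif right after GAAA, or 4 free bases after TTTC. Matches to the STAT, AP-1 and IRF motifs were found in 7.02%, 6.75% and 2.98% of all promoters, and to the composites in 33 and 32 promoters, but in neither of these 2. A composite match contains an AP-1 match by construction. The lack of a match says only that these letters are not in the 250 bases.

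Library sizes were 12281399 reads for wild-type H3K4me3, 12075963 for STAT3-deficient H3K4me3 and 10127075 for phospho-STAT3. With 1 library per group there is no replicate check and no test between genotypes. Each ratio below is a log2 ratio of STAT3-deficient over wild-type H3K4me3 reads with an exact 95% interval that covers counting error only. The main scaling set the median ratio of the 10971 regions with at least 50 reads (marked regions) to 0. Scaling by library totals instead raises every ratio by 0.32, so a negative ratio smaller than 0.32 in size changes sign. It is given beside most ratios of regions and stretches. A region met the size rule when it differed at least 2-fold with an interval that excludes 0. The rule was met by 2.14% of marked regions, 1.13% of them lower and 1.01% higher in the STAT3-deficient library.

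At Irf4, H3K4me3 was strong in both genotypes, with no difference beyond counting error at the promoter under the main scaling. The promoter region, called from 30840200 to 30846399, ran from 0.8 kb before the start to 5.4 kb past it. Wild-type reads in it numbered 383 and STAT3-deficient reads 433, which gave a log2 ratio of -0.12 (-0.32 to 0.09). The interval leaves room for neither a 2-fold gain nor a 2-fold loss under this scaling. By library totals the ratio was 0.20 (-0.00 to 0.40), so its sign depends on the scaling. The region was long and deep: 99.6% of marked regions were shorter and 99.7% had fewer wild-type reads. Within 1 kb of the start, 155 wild-type and 185 STAT3-deficient reads gave a log2 ratio of -0.04 (-0.35 to 0.28). By library totals this became 0.28 (-0.04 to 0.60).

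**Figure D1:**
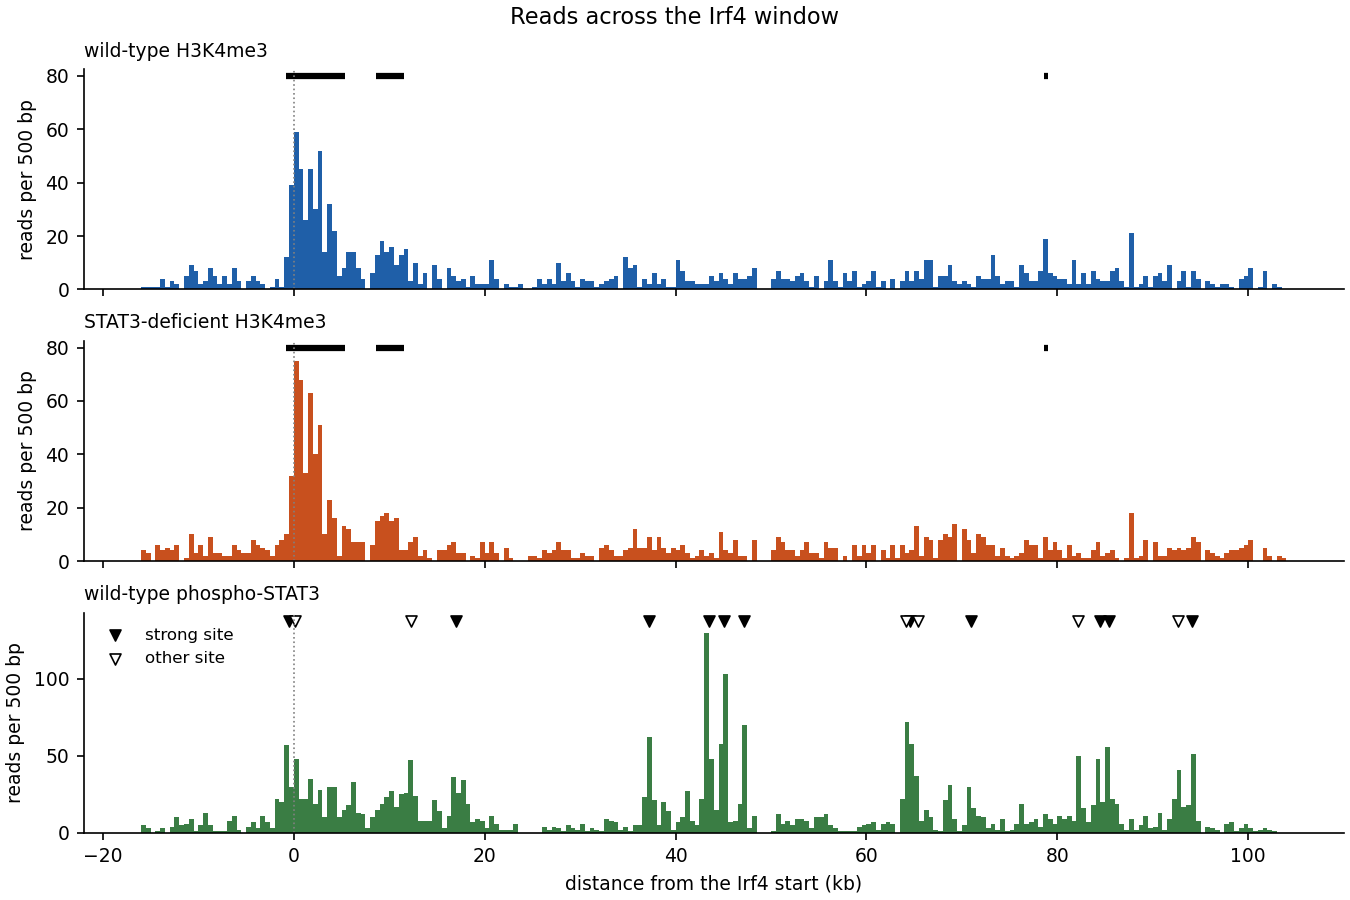
Reads per 500 bp in the 3 libraries against distance from the Irf4 start in kb. Black bars mark the 3 H3K4me3 regions and triangles the 17 phospho-STAT3 sites, filled for strong ones; H3K4me3 peaks over the start in both genotypes, while the tallest phospho-STAT3 peaks lie 43 to 45 kb past it.

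A pair of weaker H3K4me3 regions lay farther along the Irf4 window. The first, from 30849600 to 30852599, sat 8.6 to 11.6 kb past the start. Its 88 wild-type and 82 STAT3-deficient reads gave a log2 ratio of -0.40 (-0.85 to 0.05). By library totals it was -0.08 (-0.53 to 0.37). The other, 400 bp long from 30919600 to 30919999 and 79 kb past the start, held 18 and 9 reads, too few for a marked region. Its log2 ratio of -1.29 (-2.63 to -0.06) met the size rule, as did 2.66% of all called regions in the lower direction. Among called regions within a factor of 1.5 of its read number, 6.58% met the rule in that direction. Their median ratio was -0.29, and 4.50% had a ratio as low or lower. By library totals the interval of this Irf4 region included 0 (-0.98, -2.31 to 0.25).

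At Batf, H3K4me3 was lower in the STAT3-deficient library, slightly at the start and more so past it. The promoter region, called from 87027600 to 87029399, reached from 0.1 kb before the start to 1.7 kb past it. There were 120 wild-type reads and 88 STAT3-deficient reads, 1.67-fold lower after scaling, with a log2 ratio of -0.74 (-1.16 to -0.33). It did not reach the 2-fold size. An interval wholly below 0 was found for 5.67% of marked regions. Among the 4465 marked regions with read numbers within a factor of 1.5, the median ratio was 0.04, and 1.12% had a ratio as low or lower. By library totals the ratio was -0.42 (-0.84 to -0.01), and an interval wholly below 0 was then found for 1.39% of marked regions. Within 1 kb of the start, 101 wild-type and 85 STAT3-deficient reads gave -0.54 (-0.98 to -0.11). By library totals this was -0.22 (-0.66 to 0.21), an interval that includes no difference.

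Just past the promoter region, a second Batf region from 87030200 to 87030799, 2.5 to 3.1 kb past the start, held 37 wild-type and 6 STAT3-deficient reads. This was 7.56-fold lower, a log2 ratio of -2.92 (-4.45 to -1.66), and -2.60 (-4.14 to -1.34) by library totals. With 43 reads in all it was not a marked region. It was called on the wild-type library alone but not on the STAT3-deficient library alone. Calling a region through its wild-type reads favours a low ratio, so the fold of this region may be overstated. Of the 5093 called regions within a factor of 1.5 of its reads, 5.58% met the size rule in the lower direction and 0.0982% had a ratio as low or lower. Their median ratio was -0.21. The third Batf region, from 87046000 to 87046999 and 18.3 to 19.3 kb past the start, was not distinguishable between genotypes at this depth. Its 31 wild-type and 36 STAT3-deficient reads gave a log2 ratio of -0.08 (-0.81 to 0.66), and 0.24 (-0.49 to 0.98) by library totals. Thus 0 of the 4 marked regions of both windows met the size rule, and both unmarked regions met it in the lower direction.

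**Figure D2:**
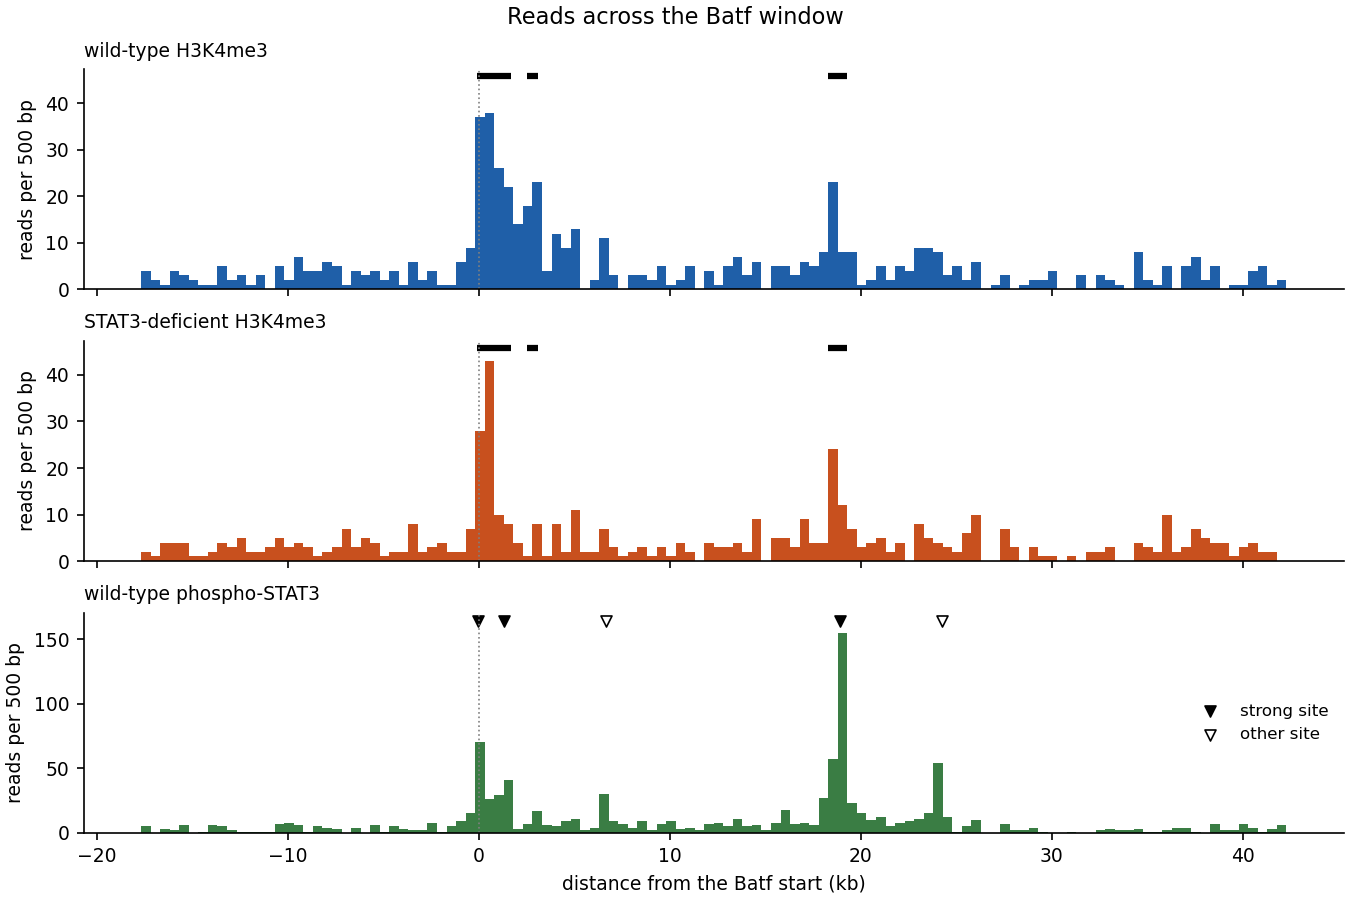
Reads per 500 bp in the 3 libraries against distance from the Batf start in kb. Black bars mark the 3 H3K4me3 regions and triangles the 5 phospho-STAT3 sites, filled for strong ones; from 1 to 5 kb past the start the wild-type library holds 16 to 40 H3K4me3 reads per kb and the STAT3-deficient one 6 to 14.

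The lower H3K4me3 at Batf was traced in bands of 1 kb. In the first kb past the start, 85 wild-type reads stood against 74 STAT3-deficient reads. In the next kb the counts were 40 and 14, from 2 to 3 kb 40 and 9, from 3 to 4 kb 16 and 6, and from 4 to 5 kb 25 and 12. Each of these 5 bands had fewer STAT3-deficient reads, and the log2 ratio went from -0.49 in the first to -2.45 in the third. By library totals the intervals of the bands from 1 to 2 kb and from 2 to 3 kb stayed below 0 (-1.49, -2.48 to -0.58, and -2.13, -3.36 to -1.06), while those of the other 3 included it. In the kb before the start the counts were 16 and 11. Fewer cells with the mark and less of it per cell cannot be told apart in such bulk libraries. Irf4 also had a lower ratio farther from its start than next to it. In its first 3 kb, wild-type counts of 104, 71 and 82 stood against STAT3-deficient counts of 143, 96 and 91. Under the main scaling the intervals of these bands included 0. By library totals the first 2 lay above it, at 0.48 (0.11 to 0.86) and 0.46 (0.00 to 0.92), and the third included it. In the next 2 bands, wild-type counts of 46 and 27 stood against 33 and 18, and the band from 3 to 4 kb had a ratio of -0.77 (-1.46 to -0.10), or -0.45 (-1.15 to 0.22) by library totals.

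Over the stretch from 2 to 5 kb past the start, which was chosen after the values were seen, Batf held 81 wild-type and 27 STAT3-deficient reads. The log2 ratio was -1.88 (-2.56 to -1.23), and -1.56 (-2.25 to -0.92) by library totals. The same stretch of Irf4 held 155 and 142 reads, -0.42 (-0.76 to -0.08), and -0.10 (-0.44 to 0.24) by library totals. Within each gene, the stretch from 2 to 5 kb had a lower ratio than the first 2 kb, whatever the scaling, by -1.08 log2 units (-1.88 to -0.30) for Batf and -0.58 (-1.02 to -0.13) for Irf4; whether these 2 falls differ was not tested. The difference between the genes does not depend on the scaling either. It was 1.46 log2 units (0.72 to 2.23) from 2 to 5 kb, 0.62 (0.16 to 1.09) between the promoter regions, and 0.50 (-0.04 to 1.05) within 1 kb of the starts. The last interval includes 0, so the promoters within 1 kb were not distinguishable at this depth. The stretch from 2 to 5 kb lies inside the promoter region of Irf4 but past that of Batf, so its difference sets unlike parts side by side. For reference, the 1 kb stretches past the edges of marked regions summed to a log2 ratio of -0.11 over 21435 stretches, and 0.21 by library totals. Those stretches lie outside all called regions, whereas the stretches from 2 to 5 kb overlap called regions in both genes. H3K4me3 reads in the rest of the Batf window, outside its regions, were 407 and 369, a log2 ratio of -0.44 (-0.64 to -0.23), and -0.12 (-0.32 to 0.09) by library totals. Those of the Irf4 window were 864 and 904, a ratio of -0.23 (-0.36 to -0.09), and 0.09 (-0.05 to 0.23) by library totals. The main scaling thus put the reads outside regions below 0 in both windows.

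**Figure D3:**
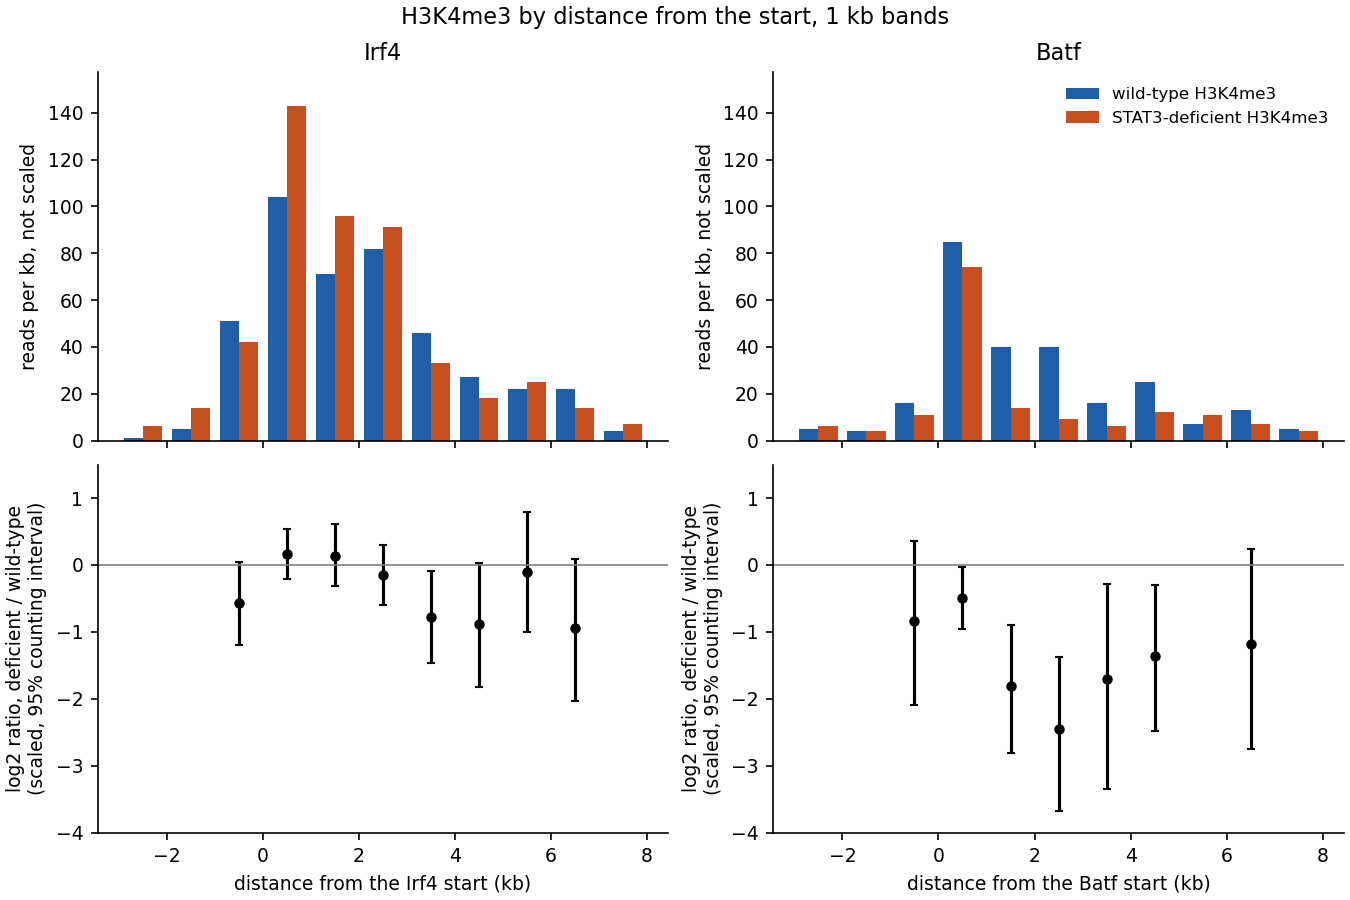
H3K4me3 in 1 kb bands from 3 kb before to 8 kb past each start: unscaled reads per library (top) and the scaled log2 ratio with its 95% counting interval (bottom, only bands whose summed reads reach 20). Batf bands from 0 to 5 kb lie below 0 with intervals that exclude it under this scaling, the first only just (-0.49, -0.96 to -0.03). Of the Irf4 bands past the start only that from 3 to 4 kb does so.

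**Figure D4:**
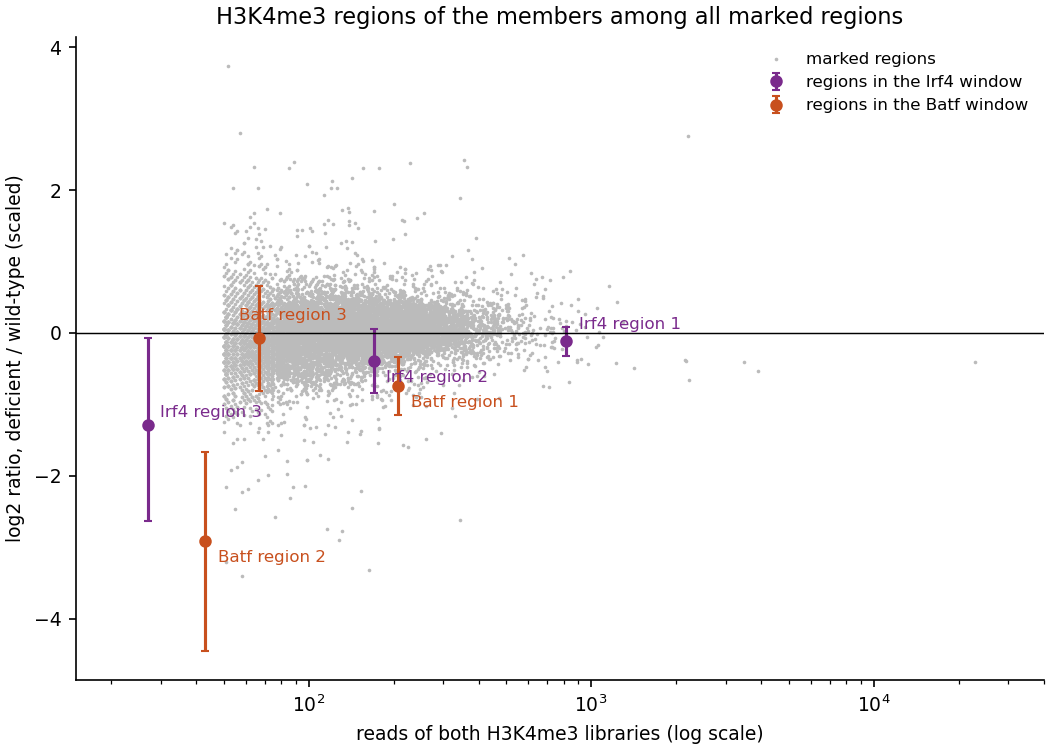
Scaled log2 ratio of STAT3-deficient over wild-type H3K4me3 against the reads of both libraries (log axis) for 10971 marked regions in grey, with the 6 regions of the Irf4 and Batf windows and their 95% counting intervals in colour. Regions are numbered along each window, so region 1 is the promoter region: that of Irf4 lies near 0 among the deepest regions, that of Batf at -0.74 near the lower edge of regions with like reads, and Batf region 2 and Irf4 region 3 have under 50 reads.

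Phospho-STAT3 was found at the starts of both genes and, for Irf4, in a long series of sites past the gene. A site is a stretch whose densest 200 bp held at least 10 reads in all, some on each strand, with a Poisson p under 1e-08 against the local density. A site is called strong when its reads above the local expectation (its excess) are in the top 25% of all sites, at least 26.1 reads. The Irf4 window held 17 sites, 11 of them strong, and the Batf window 5, 3 of them strong, against 25% of all sites by definition. Where the local density is high, a site needs a larger excess to be called at all. A larger share of strong sites in such windows thus follows in part from the calling rule. Over the whole window the phospho-STAT3 reads per kb were 5.27-fold over the genome average for Irf4 and 3.61-fold for Batf, against 1.46-fold to 2.08-fold for the H3K4me3 libraries. Of 22005 tiles of 120 kb over the genome, 3 held 17 or more sites, and of 44018 tiles of 60 kb, 781 (1.77%) held 5 or more. The windows were drawn with earlier results of these data known, so these shares describe the windows and test nothing. No input library was analysed here.

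The sites of the Irf4 window fell into groups. A strong site at -0.55 kb, from 30840250 to 30840599, held 49 reads in its densest 200 bp against 8.08 expected locally. Close by, a weaker one at 0.15 kb held 31 reads, and this second site was also called in both H3K4me3 libraries. Sites at 12.3 and 17 kb held 31 and 33 reads. The gene is 17749 bp long in the GRCm38.p6 table, where the next protein-coding gene is Exoc2, so the other 13 sites, all at least 37.2 kb past the start, lie beyond the end of Irf4 if its length is alike in mm9. To which gene they belong cannot be told apart here.

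The deepest 2 sites were neighbours in this downstream stretch. The site at 45.05 kb, from 30885800 to 30886299, held 106 reads, 53 on each strand, 9.64-fold over the local expectation. By excess it ranked 189 of the 26908 sites. Its neighbour at 43.45 kb, from 30884150 to 30884699, held 99 reads, 8.43-fold, at rank 256. The third by excess, at 64.55 kb from 30905300 to 30905749, held 63 reads, 9.69-fold, at rank 899. The sites at 47.15, 84.45, 85.4 and 94.15 kb were also strong, with 41, 46, 52 and 39 reads, as were those at 37.2 and 70.95 kb with 35 and 31. The 4 weaker ones beyond 30 kb held 26 to 30 reads.

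The 5 sites of the Batf window lay from 0.05 kb before the start to 24.25 kb past it. The deepest was at 18.9 kb, from 87046300 to 87046999, inside the third H3K4me3 region. It held 82 reads, 40 on the plus and 42 on the minus strand, 9.95-fold over the local expectation, at rank 429. The site at the start, from 87027450 to 87027849, held 50 reads against 5.30 expected, at rank 1687, and was also called in both H3K4me3 libraries, as were 12.8% of all sites. The site at 1.3 kb, from 87028850 to 87029199, held 48 reads, 8.82-fold, at rank 1925. The remaining sites, at 6.65 and 24.25 kb, held 24 and 29 reads. Batf is 22368 bp long in the GRCm38.p6 table, between Jdp2 and Flvcr2, so 3 of the sites past the start are within that length and 1 is beyond it. In both windows, each of the 22 sites held more reads (24 to 106) than the median site (21). Each was also less enriched over its surroundings (3.67-fold to 9.95-fold) than the median of 10-fold, with local expectations of 3.08 to 11.7 reads. The calling rule asks for more reads where the local density is high, and that density counts the reads of the site itself. Both comparisons with the median site thus follow in part from the rule.

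H3K4me3 at most Irf4 sites was close to the level of the rest of the window, and 3 of the 5 Batf sites lay by an H3K4me3 region. Of the Irf4 sites, 3 of 17 lay within 2 kb of an H3K4me3 region, against 3 of 5 for Batf and 33% of all sites. At the 14 other Irf4 sites, H3K4me3 within 500 bp averaged 8.86 wild-type and 9.64 STAT3-deficient reads per kb, against 7.83 and 8.19 in the window outside its regions. Phospho-STAT3 averaged 90.3 reads per kb there. The summed H3K4me3 ratio of these sites was -0.17 (-0.53 to 0.19), and 0.15 (-0.22 to 0.51) by library totals. At the 2 Batf sites away from regions the averages were 13 wild-type and 8 STAT3-deficient reads per kb, against 7.19 and 6.52 in the Batf window outside its regions. With 26 and 16 reads in all, the ratio there was -0.99 (-1.99 to -0.04), and by library totals -0.68 (-1.67 to 0.28). At the deepest site, at 45.05 kb, the counts within 500 bp were 10 wild-type and 15 STAT3-deficient H3K4me3 reads beside 159 phospho-STAT3 reads. At 43.45 kb they were 8, 7 and 178. At the Batf site at 18.9 kb they were 31, 33 and 216.

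The H3K4me3 ratio between genotypes was read at each of the 22 sites, where reads within 500 bp are shared between sites that lie closer than 1 kb (64.15 and 64.55 kb of Irf4, among others). Under the main scaling and within 500 bp, the interval included 0 at 19 of them. The share of all sites genome-wide with such an interval was not counted, so whether this number is unusual is not known. The other sites of the windows follow. The interval lay below 0 at the Batf site at 1.3 kb, with 48 wild-type and 18 STAT3-deficient reads (log2 ratio -1.71, -2.58 to -0.90), which overlaps the lower stretch described above. It also lay below 0 at the Irf4 site at 82.2 kb, with 15 and 3 reads, and above 0 at that at 70.95 kb, with 2 and 12 reads. Neither of these 2 Irf4 sites lay within 2 kb of an H3K4me3 region, and the reads at both were few. The window outside its regions held 7.83 wild-type and 8.19 STAT3-deficient reads per kb. Within 1 kb the counts were 22 and 9 at 82.2 kb (-1.58, -2.89 to -0.41). At 70.95 kb they were 11 and 33 (1.29, 0.27 to 2.42). At the start of Batf, 52 and 43 reads gave -0.57 (-1.19 to 0.04), and at the Irf4 site at -0.55 kb, 49 and 41 reads gave -0.55 (-1.19 to 0.08). The count of 19 depends on the half-width. Within 1 kb of the sites, the interval also lay below 0 at the Irf4 sites at 12.3 and 47.15 kb. It did so too at the Batf sites at the start (-0.52, -0.96 to -0.08) and at 24.25 kb (-1.03, -2.06 to -0.05). Both Batf and Irf4 promoter regions had a strong site within 10 kb, as did 24.6% of marked regions.

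**Figure D5:**
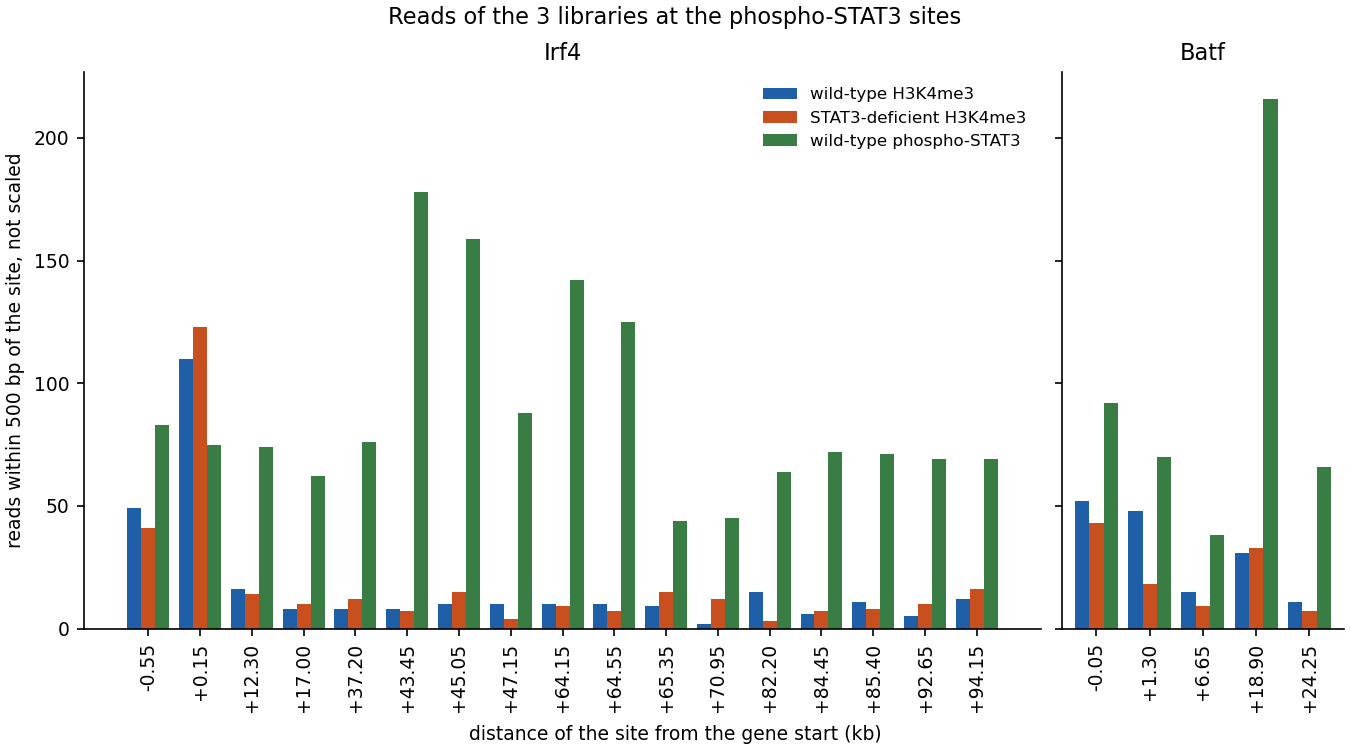
Unscaled reads of the 3 libraries within 500 bp of each of the 22 phospho-STAT3 sites, placed by distance from the Irf4 start (left) and the Batf start (right) in kb. At the Irf4 sites from 12.3 kb on, both H3K4me3 libraries hold 2 to 16 reads while phospho-STAT3 reaches 178, and at the Batf site at 1.3 kb the wild-type bar exceeds the STAT3-deficient one.

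The regions elsewhere with the most similar reads per kb in the 3 libraries were sought among marked regions by Euclidean distance of log2 values, a likeness over 3 libraries only. For the Irf4 promoter region the nearest 3 were on chromosome 16 from 57231000, chromosome 2 from 24789400 and chromosome 9 from 60535600, with log2 ratios of -0.15, -0.08 and -0.11. For Batf they were on chromosome 11 from 103127200, chromosome 10 from 34017200 and chromosome 7 from 79450600, with log2 ratios of -0.62, -0.48 and -0.74. Both H3K4me3 libraries enter the distance, so ratios similar to that of the promoter region follow from the choice.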

How the data were processed

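Each line of the deposited files is 1 aligned read of 25 bp, and reads were counted here from their positions. Per the submitters' processing notes, the build was mm9 and SICER was used; the aligner is not given in the sources used here. Per the labels' protocols, libraries had 18 PCR cycles and fragments of about 250 bp with adapters. No position and strand of the deposited files carried more than 1 read. The members, windows and motifs were chosen with earlier results of these data known.

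Reads were moved 75 bp towards the fragment centre. Both H3K4me3 libraries were pooled to call regions from 200 bp windows with at least 12 reads (Poisson p of 1e-05, mappable share 0.8), joined across up to 600 bp, with at least 2 windows. Phospho-STAT3 sites came from 200 bp windows in steps of 50 bp tested against the genome average or the density over 10 kb, whichever was larger. Every region and site of the windows was described, with the 3 sites of largest excess in full. Intervals are Clopper-Pearson, or exact conditional ones for differences, and reads carry no molecular identifiers. The site caller, on an even background, and the Clopper-Pearson intervals were tested on simulated data. The region caller and the conditional intervals were not. Marker and pathway lists were not run, because the gene table is of GRCm38.p6. Alternatives were scaling by library totals, other half-widths, no read shift, subtracted background, equal depth, other calling libraries and thresholds. Python 3.11.15, numpy 2.4.6, scipy 1.17.1, pandas 2.3.3 and matplotlib 3.10.9 were used.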

Additional observations from a re-analysis of the deposited data

How the results depend on the processing

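Of 96 alternative values for 35 results, 93 stayed within the 95% interval of the reported value or, for numbers of sites, within 1.5 times it. Where reads are few these intervals are wide, so staying within them is a weak check. Whether an interval excludes 0 can still change, as it did at some sites with a half-width of 1 kb. Scaling by library totals moved the Irf4 ratio within 1 kb of the start to 0.28 and that of the Irf4 promoter region to 0.20, in both cases with a sign opposite to the reported one. The ratio of the third Batf region, among others, changed sign too, from -0.08 to 0.24, but stayed within its interval. With the window's background subtracted, the Batf ratio from 2 to 5 kb went from -1.88 to -3.29, a subtraction that leaves few STAT3-deficient reads. The Batf ratio within 1 kb stayed below 0 under each alternative run, from -0.79 at a half-width of 2 kb to -0.22 by library totals, but its interval reached past 0 by library totals and at a half-width of 500 bp. The difference between both promoters had an interval above 0 at a half-width of 2 kb (0.85, 0.39 to 1.30) and one including 0 at 500 bp. The second Batf region was not called on the STAT3-deficient library alone or at a region threshold of 1e-08, the third Batf region not on the wild-type library alone, and the third Irf4 region under none of these 3 settings, so they have no value there. The number of Irf4 sites ranged from 12 at a threshold of 1e-12 to 17, and that of Batf sites from 4 to 5. The stretch from 2 to 5 kb and its alternatives were chosen after the data were seen. No paired analysis was possible because each group had 1 library, and for the same reason no library could be left out.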
